A study of Homo sapiens with 6 samples.

Results

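The genes described here are 34 genes of the lysosome: 11 cathepsins, 6 membrane proteins, 2 cholesterol carriers, 5 glycosidases, 4 genes of lipid breakdown, 3 genes of neuronal ceroid lipofuscinosis and 3 transcription factors that regulate such genes. They were taken by symbol from a count table with 21872 rows, in which all 34 were found. The libraries were made from MOC2, a mouse oral carcinoma line that serves as a model of head and neck squamous cell carcinoma. The 3 control libraries came from cells given lentiviral particles with a control CRISPR/Cas9, and the 3 knockout libraries from cells given particles with CRISPR/Cas9 against HuR. Exposure was at 25 MOI for 18 hours, with 72 further hours in DMEM with 10% serum, per the labels' protocols. HuR, encoded by Elavl1, is a protein that binds AU-rich mRNAs. The labels speak of 1 isolated clone, so the knockout libraries may share it; whether the control is a clone, and whether libraries came from separate cultures, is not said. A p-value here therefore sets the difference between groups only against the spread of these libraries, which may be technical. The titles of the knockout libraries say KD where their genotype label says knockout, and the species label says human although the row names are mouse symbols.

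Lysosomes are acidic organelles in which proteins, glycans and lipids are broken down. Soluble hydrolases reach them from the Golgi, mostly by a mannose 6-phosphate tag, and a coat of glycosylated membrane proteins lines their limiting membrane. TFEB, TFE3 and MITF are related transcription factors that bind E-box elements near many lysosomal genes and are held in the cytoplasm when the kinase mTORC1 is active. In carcinoma cells, cathepsins are also studied as secreted proteases that cut the extracellular matrix.

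Library totals lay between 16158516 and 21294330 counts. Values are given as CPM, the count divided by the TMM-scaled library total and multiplied by 1e+06, and are compared only within a gene, as no gene length entered. Knockout library 3 stood apart: log2 CPM correlated across genes at 0.978 between knockout 1 and 2 and at 0.924 and 0.931 between knockout 3 and these. It is therefore shown apart below. Elavl1 mRNA was at 107, 120 and 117 CPM in control against 116, 114 and 105 CPM in knockout (log2 fold change -0.04, SE 0.111, adjusted p = 0.82), which does not check the labels, since an edited mRNA can keep its level.

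The 34 genes moved in 1 direction where they were called changed with all libraries in the fit. Of the 34, 31 had enough counts to test, and 14 of these (45.2%) were higher in knockout, 0 were lower and 17 did not pass. A gene is called changed, higher or lower where the p-value of edgeR's quasi-likelihood test, adjusted over all 12293 genes tested, is at most 0.05. Of all genes tested, 35.7% changed, 20.3% higher and 15.4% lower. The median log2 fold change was 0.82 over the 31 and 0.03 over all genes tested. In 18 of the 31, every knockout library lay above every control library, and in 0 every one lay below. Over all genes tested the groups did not overlap in 57.6%, with knockout above in 29.7% and below in 27.9%. The 14 were Ctsa, Ctsc, Ctso, Lamp2, Cd63, Npc2, Gla, Hexa, Psap, Lipa, Smpd1, Tpp1, Grn and Mitf. Mitf passed the filter on low counts through its knockout libraries alone, so it could enter the test only by being high there. As a description of the libraries, the 34 genes together took 0.409%, 0.372% and 0.376% of all counts in control 1, 2 and 3 and 0.452%, 0.488% and 0.778% in knockout 1, 2 and 3. Without control 1, 2 or 3, 8, 4 and 4 genes remained called higher, where 21.5%, 18.4% and 18.8% of all genes tested were called. Ctsa, Lipa, Smpd1 and Tpp1 were called under each of the 15 alternatives run.

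**Figure D1:**
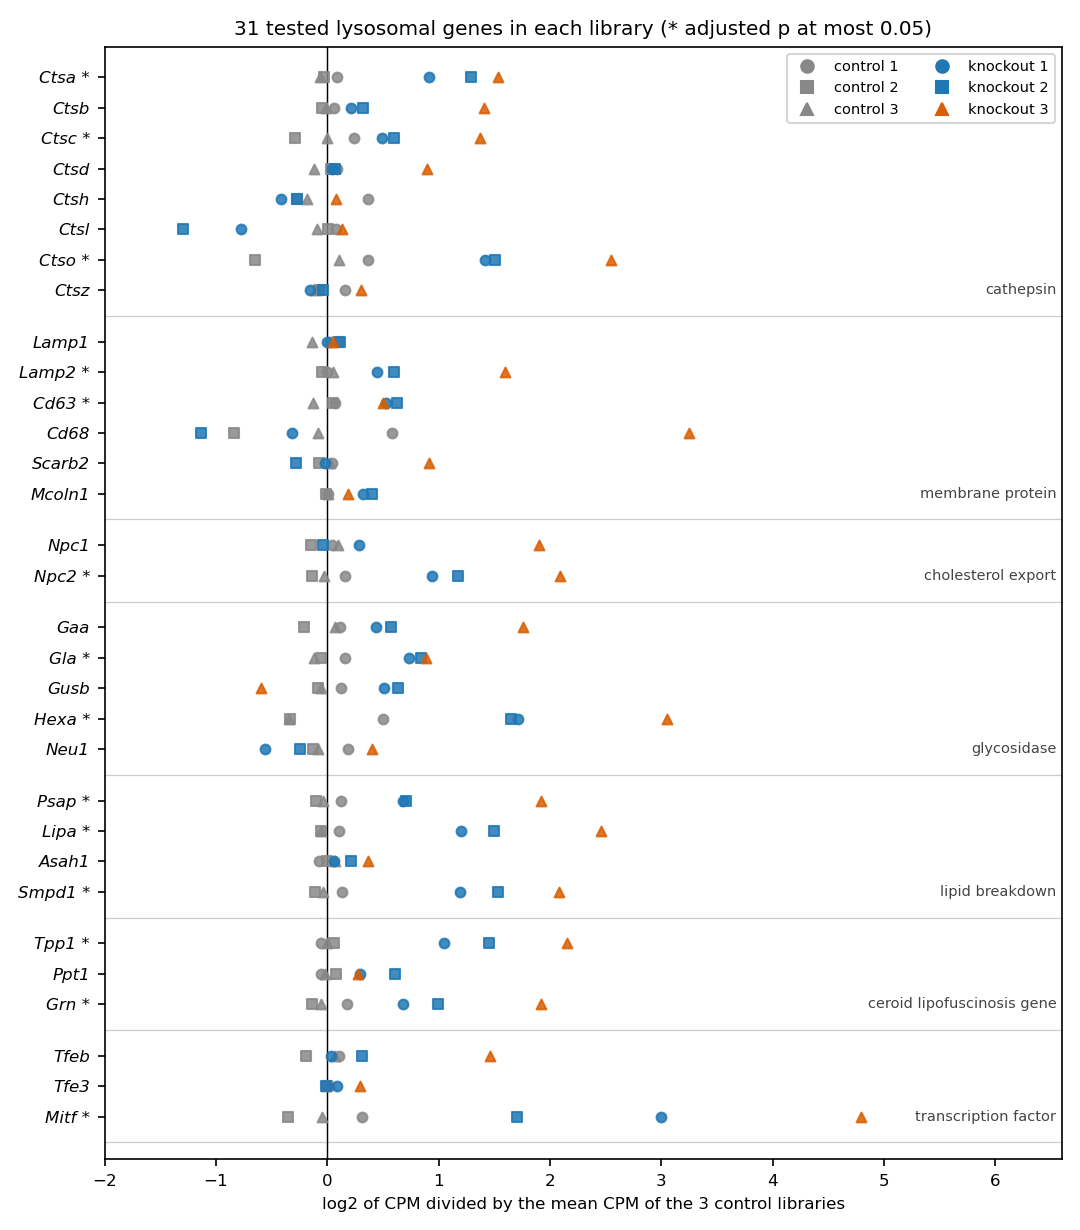
Each row is 1 of the 31 tested genes and each point 1 library, on a log2 scale relative to the mean CPM of the 3 control libraries (grey; knockout 1 and 2 blue, knockout 3 orange). Knockout 3 lies to the right of the other knockout libraries in 26 rows, and Gusb is the row where it lies to the left of all other libraries.

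Among the cathepsins, 3 of the 8 tested rose (37.5% changed, against 35.7% of all genes tested). Ctsa encodes protective protein/cathepsin A, a serine carboxypeptidase that also shields neuraminidase and beta-galactosidase from degradation. It was at 75.7, 69.6 and 67.9 CPM in control 1, 2 and 3 against 134, 174 and 206 CPM in knockout 1, 2 and 3. All knockout libraries lay above all controls, and Ctsa rose 2.41-fold (log2 fold change 1.27, SE 0.178, adjusted p = 0.00292). Ctso, a little-studied cysteine cathepsin, was at 3.56, 1.77 and 2.98 CPM in control and 7.41, 7.84 and 16.2 CPM in knockout. The groups did not overlap and Ctso rose 3.77-fold (SE 0.428 on the log2 scale, adjusted p = 0.0155); its call was lost without control 2 or 3 (adjusted p = 0.0619 and 0.0626). Ctsc encodes dipeptidyl peptidase I, which activates serine proteases of immune cell granules. Its CPM were 49.8, 34.6 and 42.2 in control and 59.1, 63.9 and 109 in knockout, again without overlap. The rise of Ctsc was 1.84-fold (adjusted p = 0.0464), and 8 of the 15 alternatives did not call it, with adjusted p between 0.0176 and 0.168 over all 15; without control 1, 2 or 3 it was 0.0797, 0.168 and 0.14, and without knockout 2 it was 0.0563.

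The cathepsins usually most abundant in lysosomes did not pass the test. Ctsb, a cysteine protease with endo- and exopeptidase activity, was at 263, 244 and 251 CPM in control, at 292 and 317 CPM in knockout 1 and 2 and at 670 CPM in knockout 3. All knockout libraries were above the controls, the gap being widest in knockout 3 (log2 fold change 0.75, 95% interval -0.03 to 1.53, adjusted p = 0.118). Ctsd, the main aspartic protease of lysosomes, was at 221, 213 and 192 CPM in control, at 215 and 219 CPM in knockout 1 and 2 and at 390 CPM in knockout 3. Only knockout 3 left the control range (adjusted p = 0.266). Ctsl, a cysteine endopeptidase, went in opposite directions within the knockout group. It was at 682, 649 and 607 CPM in control, at 378 and 263 CPM in knockout 1 and 2, below every control, and at 709 CPM in knockout 3, above every control (log2 fold change -0.52, 95% interval -1.36 to 0.31, adjusted p = 0.283). Without knockout 3, Ctsl was called 2.02-fold lower (adjusted p = 0.00193).

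The exopeptidases Ctsh and Ctsz stayed within or near the control range. Ctsh, an aminopeptidase, was at 56.5, 36.1 and 38.6 CPM in control and 32.9, 36.3 and 46.2 CPM in knockout (adjusted p = 0.546). Ctsz, a carboxypeptidase, was at 225, 192 and 188 CPM in control and 181, 197 and 248 CPM in knockout (log2 fold change 0.05, 95% interval -0.34 to 0.44, adjusted p = 0.834). For both, the groups overlapped. Ctsf, Ctsk and Ctss held too few counts to test. Ctsf was at 0.295 to 0.365 CPM in control, at 0.599 and 0.245 CPM in knockout 1 and 2 and at 3.25 CPM in knockout 3, where 53 counts were read. Ctsk, the collagen-degrading cathepsin of osteoclasts, had at most 6 counts in any library. Ctss, the cathepsin of antigen-presenting cells, had 1, 0 and 0 counts in control and 1, 5 and 14 in knockout, the last being 0.857 CPM.

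**Figure D2:**
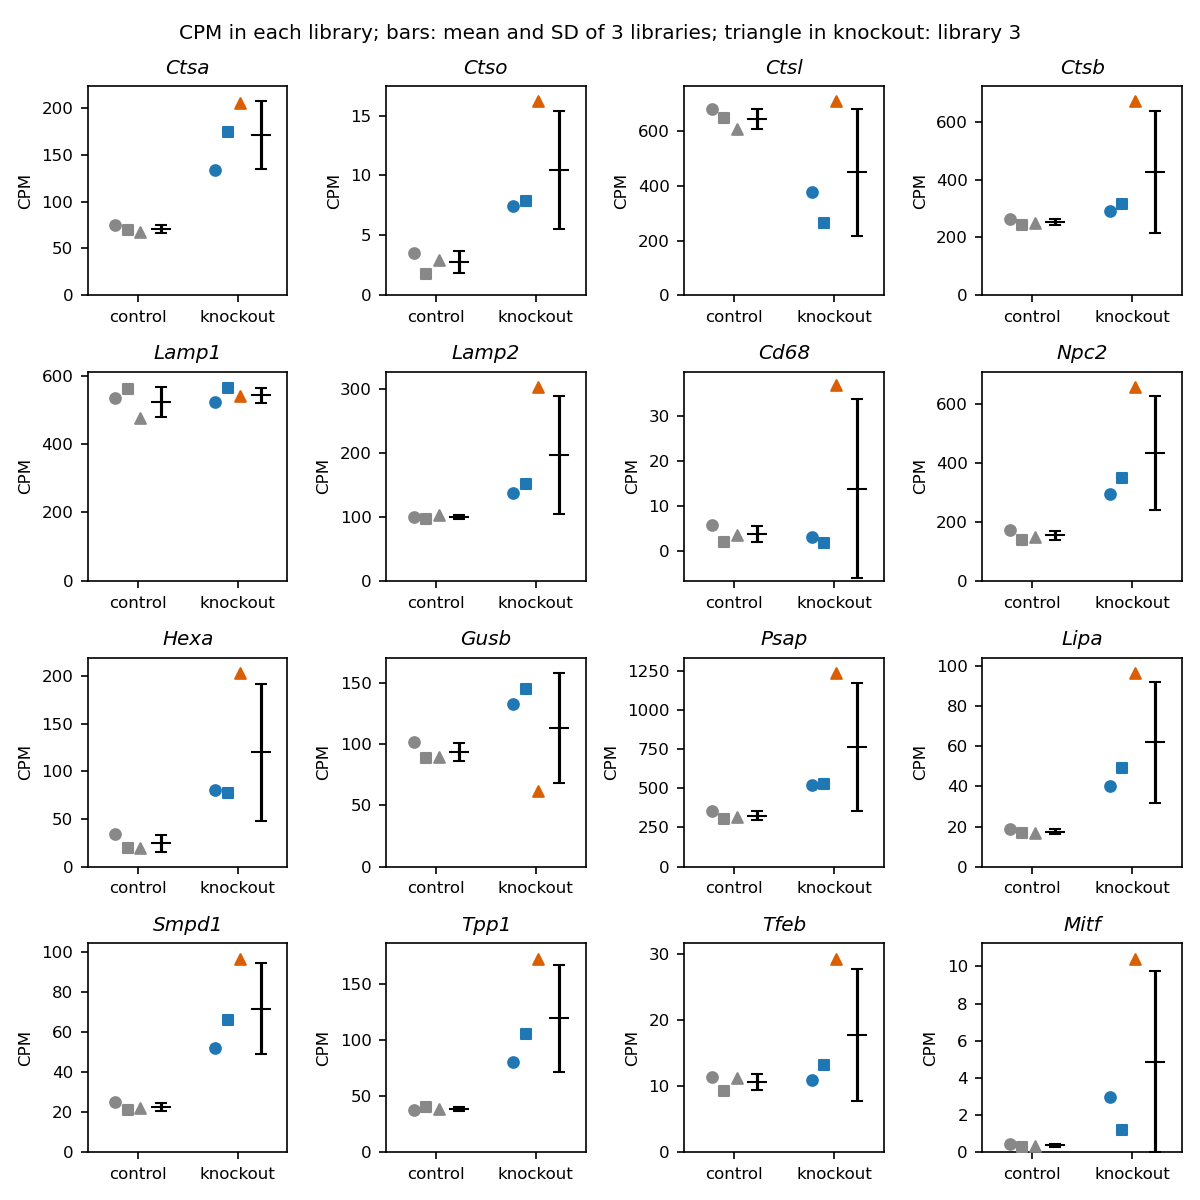
CPM of 16 lysosomal genes in each library (points; grey control, blue knockout 1 and 2, orange triangle knockout 3), with the mean and SD of 3 libraries beside each group on linear axes. Knockout 3 is the highest library in all panels except Lamp1, which is level, and Gusb, where it is the lowest; the SD bars of the knockout group are long where it departs.

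Of the membrane proteins, Lamp2 and Cd63 rose while Lamp1 was level. Lamp1 and Lamp2 are the heavily glycosylated proteins that line the lysosomal membrane, and an isoform of Lamp2 is the receptor of chaperone-mediated autophagy. Lamp1 was at 533, 560 and 476 CPM in control and 522, 565 and 541 CPM in knockout, with overlapping groups. The interval of its log2 fold change reached from -0.24 to 0.35 (adjusted p = 0.76). Lamp2 was at 99.7, 96.8 and 103 CPM in control against 137, 151 and 303 CPM in knockout, without overlap. Lamp2 rose 1.97-fold (adjusted p = 0.0485), close to the threshold, and 9 of the 15 alternatives did not call it; without control 1, 2 or 3 its adjusted p was 0.132, 0.155 and 0.137, and without knockout 2 it was 0.0508. Cd63, a tetraspanin of late endosomes and exosomes, was at 332, 329 and 291 CPM in control and 457, 490 and 448 CPM in knockout. The 3 knockout libraries lay close together and Cd63 rose 1.47-fold (SE 0.121 on the log2 scale, adjusted p = 0.0143). Without control 1, 2 or 3 the adjusted p of Cd63 was 0.0533, 0.0714 and 0.0916.

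The other membrane proteins did not pass. Cd68, a glycoprotein best known from macrophages, was at 5.8, 2.16 and 3.65 CPM in control, at 3.11 and 1.76 CPM in knockout 1 and 2 and at 36.9 CPM in knockout 3. Knockout 3 alone was high, 15.1 times the mean of knockout 1 and 2, and the test over all 3 gave an adjusted p of 0.248 with an interval of the log2 fold change from -0.88 to 4.56. Without knockout 3 the log2 fold change of Cd68 was -0.67 (adjusted p = 0.271). Scarb2 encodes LIMP-2, the receptor that carries glucocerebrosidase to lysosomes. Its CPM were 63.6, 58.8 and 63.1 in control, 61.0 and 50.8 in knockout 1 and 2 and 117 in knockout 3. Knockout 2 lay below the controls and knockout 3 above them (adjusted p = 0.48). Mcoln1, the calcium-permeable channel TRPML1, was at 39.8, 39.2 and 39.8 CPM in control and 49.4, 52.2 and 45.1 CPM in knockout. The groups did not overlap, yet the log2 fold change of 0.30 missed the threshold (adjusted p = 0.0868); without knockout 3 it was 0.36 and passed (adjusted p = 0.0172).

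Of the partners of cholesterol export, Npc2 was called and Npc1 was not. Npc2 binds cholesterol in the lysosomal lumen and hands it to Npc1, which moves it out through the membrane. Npc2 was at 171, 140 and 150 CPM in control against 296, 348 and 655 CPM in knockout, without overlap, and rose 2.81-fold (log2 fold change 1.49, SE 0.313, adjusted p = 0.0123; 0.0615 and 0.0585 without control 2 or 3). Npc1 was at 47.5, 41.6 and 49.2 CPM in control, at 56.1 and 45.0 CPM in knockout 1 and 2 and at 173 CPM in knockout 3. Knockout 2 lay inside the control range, and Npc1 did not pass (log2 fold change 0.98, adjusted p = 0.172). Its log2 fold change was 0.13 without knockout 3 (adjusted p = 0.434). The intervals of the log2 fold change, -0.22 to 2.18 for Npc1 and 0.74 to 2.24 for Npc2, overlapped, and the difference between the genes was not tested.

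Of the glycosidases, Hexa and Gla rose. Hexa encodes the alpha subunit of beta-hexosaminidase A, which cleaves GM2 ganglioside. It was at 34.6, 19.4 and 19.3 CPM in control against 80.3, 76.8 and 203 CPM in knockout. The lowest knockout library was above the highest control, and Hexa rose 4.91-fold (log2 fold change 2.29, SE 0.464, adjusted p = 0.0108). Without knockout 3 it rose 3.21-fold, and without control 2 or 3 its adjusted p was 0.0537 each time. Gla, alpha-galactosidase A, which removes galactose from globotriaosylceramide, was at 10.9, 9.43 and 8.99 CPM in control and 16.3, 17.5 and 18.1 CPM in knockout. The knockout libraries were nearly alike and Gla rose 1.77-fold (adjusted p = 0.0102; 0.0608 and 0.0642 without control 2 or 3).

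Gaa, the acid alpha-glucosidase that degrades glycogen, was at 146, 117 and 142 CPM in control, at 183 and 202 CPM in knockout 1 and 2 and at 456 CPM in knockout 3. The groups of Gaa did not overlap, but with 3 libraries each it did not pass (2.07-fold, adjusted p = 0.064). It passed without knockout 3 (1.42-fold, adjusted p = 0.00764), without knockout 1 (adjusted p = 0.0356) and with DESeq2 (adjusted p = 0.0218). Gusb, beta-glucuronidase, which acts on glycosaminoglycans, was the reverse of Ctsl. It was at 102, 88.4 and 89.8 CPM in control, at 133 and 145 CPM in knockout 1 and 2, above every control, and at 61.9 CPM in knockout 3, below every control. Over all 3 knockout libraries Gusb did not pass (adjusted p = 0.51), while without knockout 3 it was called 1.49-fold higher (adjusted p = 0.00217). Neu1, the lysosomal sialidase, was at 33.7, 27.0 and 27.8 CPM in control and 20.1, 24.8 and 39.0 CPM in knockout, with knockout 1 and 2 below and knockout 3 above the controls (adjusted p = 0.839; 0.0648 without knockout 3).

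Of the 4 genes of lipid breakdown, 3 were called higher, with every knockout library above every control. Over all genes tested, 20.3% were called higher, and knockout lay wholly above control in 29.7%. Lipa, lysosomal acid lipase, which hydrolyses cholesteryl esters and triglycerides, was at 18.9, 16.9 and 16.8 CPM in control against 40.2, 49.4 and 96.6 CPM in knockout. Each knockout library had more than the highest control, and Lipa rose 3.54-fold (log2 fold change 1.82, SE 0.337, adjusted p = 0.00796). Smpd1, acid sphingomyelinase, was at 25.1, 21.2 and 22.2 CPM in control against 52.4, 66.2 and 96.8 CPM in knockout. Smpd1 rose 3.14-fold (log2 fold change 1.65, SE 0.241, adjusted p = 0.00342), without overlap of the groups. Psap encodes prosaposin, the precursor of the saposins that present sphingolipids to their hydrolases. It was at 356, 304 and 317 CPM in control, at 522 and 530 CPM in knockout 1 and 2 and at 1236 CPM in knockout 3. Psap rose 2.34-fold (adjusted p = 0.0373), but its adjusted p was 0.0967, 0.132 and 0.124 without control 1, 2 or 3. Asah1, acid ceramidase, was at 208, 218 and 229 CPM in control and 228, 253 and 282 CPM in knockout, with groups that overlapped in knockout 1 (log2 fold change 0.22, 95% interval -0.09 to 0.53, adjusted p = 0.231).

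Tpp1, Grn and Ppt1 are genes of neuronal ceroid lipofuscinosis, a group of storage diseases of neurons. All 3 lay above every control in each knockout library, as did 29.7% of all genes tested. Ctsd, described above, is also a gene of this disease group and overlapped control. Cln3, a further one from the list of other lysosomal membrane proteins, named here after its values were seen, was at 30.2, 29.8 and 32.1 CPM in control against 19.1, 13.8 and 17.4 CPM in knockout. Cln3 fell 1.83-fold (log2 fold change -0.88, SE 0.163, adjusted p = 0.00791), and its groups did not overlap. Tpp1, a protease that removes tripeptides, was at 37.4, 40.4 and 38.8 CPM in control against 80.5, 106 and 173 CPM in knockout. Tpp1 rose 3.08-fold (log2 fold change 1.62, SE 0.279, adjusted p = 0.00614). Grn encodes progranulin, which is secreted and also cut into granulins inside lysosomes. Its CPM were 140, 112 and 118 in control and 197, 245 and 466 in knockout, and it rose 2.46-fold (adjusted p = 0.0239; 0.0653, 0.0992 and 0.0933 without control 1, 2 or 3). Ppt1, a thioesterase that removes palmitate from proteins, was at 21.8, 23.8 and 22.2 CPM in control and 27.7, 34.5 and 27.3 CPM in knockout. The groups did not overlap, but Ppt1 missed the threshold (1.32-fold, adjusted p = 0.0764; 0.0213 without knockout 3).

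Among the transcription factors only Mitf was called. Tfeb was at 11.5, 9.33 and 11.2 CPM in control, at 10.9 and 13.2 CPM in knockout 1 and 2 and at 29.3 CPM in knockout 3. Knockout 1 lay inside the control range, and the log2 fold change of Tfeb was 0.74 (95% interval -0.19 to 1.66, adjusted p = 0.183) and 0.18 without knockout 3. Tfe3 was at 56.9, 56.3 and 56.1 CPM in control and 60.0, 55.9 and 69.2 CPM in knockout (log2 fold change 0.13, 95% interval -0.17 to 0.42, adjusted p = 0.451). Mitf, the melanocyte and osteoclast member of the family, was low in control with 10, 6 and 6 counts (0.468, 0.295 and 0.365 CPM), against 3.0, 1.23 and 10.4 CPM in knockout. Mitf rose 12.7-fold (log2 fold change 3.67, SE 0.865, adjusted p = 0.0187), 5.5-fold without knockout 3 (adjusted p = 0.00595). Mitf entered the test through its knockout counts alone, so it could only be called higher. Without control 1, 2 or 3 its adjusted p was 0.0641, 0.0798 and 0.0757, and limma-voom gave a log2 fold change of 3.03 (adjusted p = 0.0628). These are mRNA levels, and where the proteins were in the cell was not measured here.

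Knockout 3 set much of the spread. It was the highest knockout library in 26 of the 31 genes tested (83.9%) and the lowest in 4. Over all genes tested it was the highest in 43.2%. Over all 34, it was at least 2 times the mean of knockout 1 and 2 in 18 genes, led by Cd68 (15.1 times), Ctsf (7.69 times, few counts) and Ctss (5.73 times, few counts), with Mitf at 4.93 times and Npc1 at 3.41 times. Cd63, Lamp1, Mcoln1, Ppt1 and Gla differed little, with ratios of 0.946, 0.996, 0.887, 0.879 and 1.07, and Gusb was at 0.446 times. Without knockout 3 more genes were called. Of 31 tested, 19 were then higher and 1, Ctsl, was lower, with a median log2 fold change of 0.51. Over all 12471 genes tested in this fit 48.3% changed, 25.5% higher and 22.8% lower, with a median of 0.02. The genes gained were Ctsb, Gaa, Gusb, Mcoln1 and Ppt1 among the higher and Ctsl as the lower one, and all 14 called with 3 libraries were called again.

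**Figure D3:**
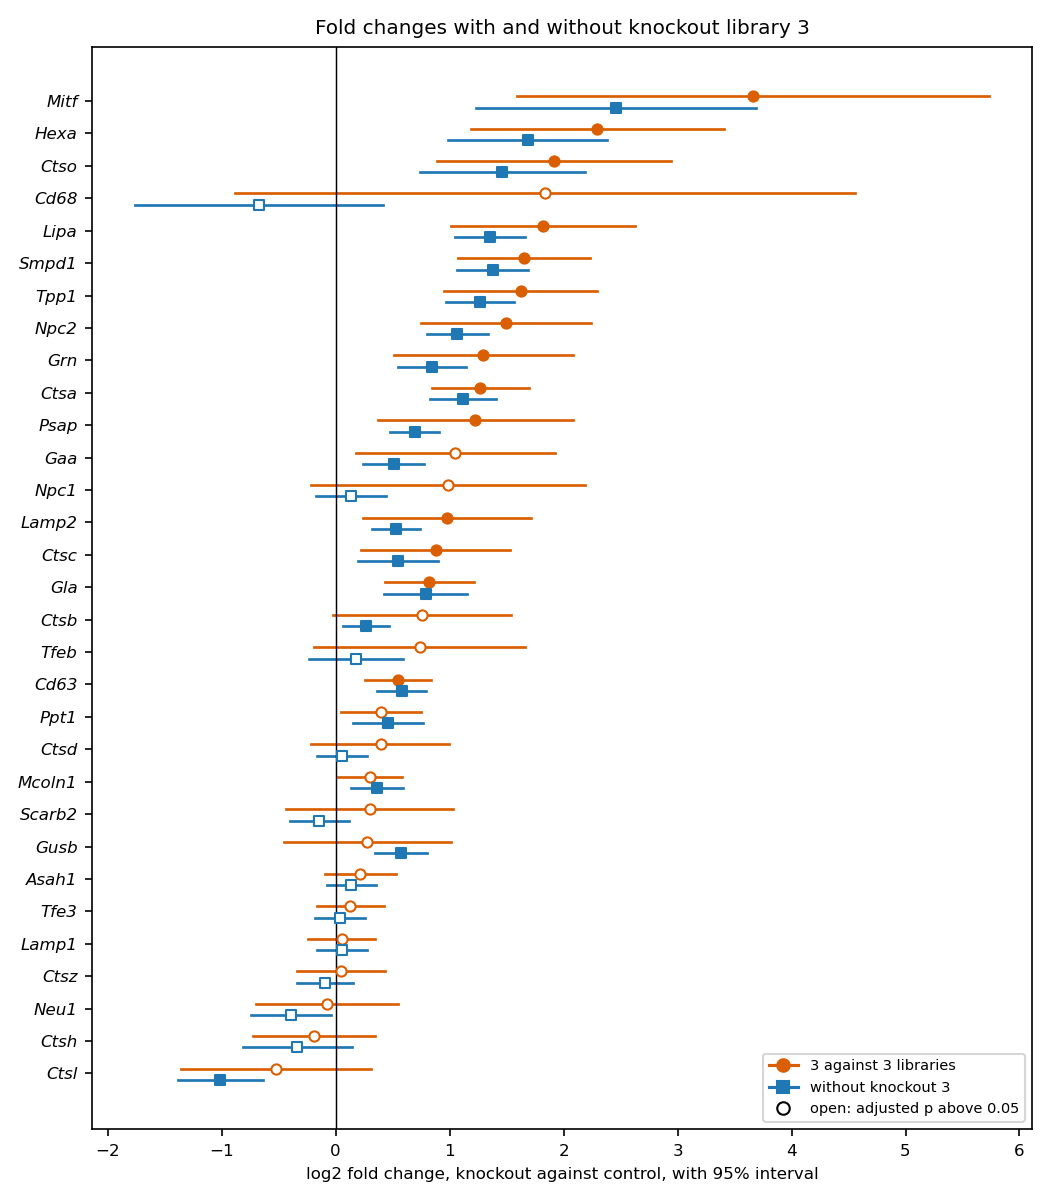
Log2 fold change of knockout against control with its 95% interval for the 31 tested genes, from 3 against 3 libraries (orange circles) and without knockout 3 (blue squares); filled symbols have an adjusted p of at most 0.05. The blue intervals are narrower for most genes, and the symbols separate most for Cd68 (1.84 and -0.67).

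The other genes of the lysosome and of autophagy were counted by list. Of 41 other lysosomal hydrolases and activators tested, 18 rose and 1 fell, near the share among the genes above (46.3% changed). Of all genes tested, 35.7% changed, 20.3% higher and 15.4% lower. Arsa, arylsulfatase A, which desulfates sulfatide, was at 13.0, 11.7 and 12.8 CPM in control and 38.2, 46.9 and 67.1 CPM in knockout and rose 4.05-fold (adjusted p = 0.0015). Hpse, the heparan sulfate-cleaving heparanase, rose 3.73-fold, the sulfatase Arsg 8.6-fold (from 1.12 to 9.75 CPM on average) and the lysosomal lipid-binding protein Epdr1 2.35-fold (adjusted p = 0.00156, 0.00394 and 0.00329). These 4 calls held under every alternative run, and without knockout 3 the rise of Arsg was 5.68-fold. Of 33 other lysosomal membrane proteins tested, 14 rose and 2 fell (48.5% changed). Gpnmb, a glycoprotein of melanosomes and lysosomes, was at 14.4, 20.5 and 17.8 CPM in control against 185, 209 and 523 CPM in knockout. It rose 17.4-fold (log2 fold change 4.12, SE 0.468, adjusted p = 0.0015), with every knockout library far above every control, and 11.2-fold without knockout 3. The cation channel Tpcn1 rose 3.06-fold and Glmp 1.85-fold, while Slc11a2, an iron transporter of endosomes and the cell surface, fell 2.21-fold (adjusted p = 0.000995, 0.00614 and 0.00168). Without control 1, 2 or 3, 12, 10 and 10 of the hydrolases and 9, 7 and 7 of the membrane proteins were called. In these fits 21.5%, 18.4% and 18.8% of all genes tested were called.

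The proton pump and the sorting machinery were counted next. Of 19 V-ATPase subunits tested, 3 rose and 0 fell (15.8% changed, against 35.7% of all genes tested). Their median log2 fold change was 0.04. Those that rose were Atp6v0d1 1.85-fold, Atp6ap1 1.54-fold and Tcirg1 1.69-fold (adjusted p = 0.00263, 0.0107 and 0.0165). Of these, only Atp6v0d1 was called without control 2 or 3. Of 22 genes of the mannose 6-phosphate and sorting machinery, 5 rose and 3 fell (36.4% changed, against 35.7% of all genes tested). The sorting receptor Sort1 was at 53.4, 36.3 and 42.5 CPM in control and 130, 195 and 221 CPM in knockout and rose 4.13-fold (adjusted p = 0.00184), and the AP-3 subunit Ap3s1 rose 2.73-fold (adjusted p = 0.00073). The AP-3 subunit Ap3m1 fell 1.61-fold, and Ap1m2, the epithelial form of an AP-1 subunit, fell 14.0-fold, from 45.3, 38.1 and 34.3 CPM to 5.61, 1.32 and 1.47 CPM (adjusted p = 0.00465 and 0.00401). Without knockout 1 the fall of Ap1m2 was 28.1-fold. Of 23 genes of tethering and lysosome movement tested, 5 rose and 1 fell (26.1% changed, below the 35.7% of all genes tested). Rilp rose 3.58-fold, Vps11 1.48-fold and Borcs6 1.66-fold, and Arl8a fell 1.59-fold (adjusted p = 0.00903, 0.0194, 0.0303 and 0.0182). Without control 1, 2 or 3 this list had 1, 1 and 0 calls, and without knockout 3 it had 11. In these 4 fits 21.5%, 18.4%, 18.8% and 48.3% of all genes tested were called. The losses included Rilp without control 2 (adjusted p = 0.0517) and control 3 (0.053), Arl8a without control 1 (0.0646) and control 3 (0.0718), and Vps11 and Borcs6 without any 1 control library.

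Of 26 regulators of TFEB in the mTORC1 pathway tested, 3 rose and 0 fell (11.5% changed, against 35.7% of all genes tested). Flcn, which encodes folliculin, an activator of the Rag GTPases that keep TFEB in the cytoplasm, was at 29.4, 31.3 and 31.6 CPM in control and 47.5, 56.2 and 107 CPM in knockout and rose 2.28-fold (adjusted p = 0.0256). Lamtor4 rose 1.8-fold and Tsc2 1.29-fold (adjusted p = 0.0251 and 0.0365). None of the 26 was called without control 1, 2 or 3. Without knockout 3, 8 were called, where 48.3% of all genes tested were called. Tsc2 also lost its call without knockout 1 or 2 (adjusted p = 0.0859 and 0.0816). Of 37 macroautophagy genes, 15 rose and 0 fell (40.5%, median log2 fold change 0.57). The shares over all genes tested were 35.7% changed, 20.3% higher and 15.4% lower. Atg9a, the membrane protein of autophagosome seeds, was at 39.2, 38.6 and 41.1 CPM in control and 73.4, 86.7 and 90.8 CPM in knockout and rose 2.11-fold (adjusted p = 0.00159). Gabarap, an ATG8-family protein of autophagosomes, rose 2.19-fold, Uvrag 1.63-fold and Atg4a 1.85-fold (adjusted p = 0.00664, 0.00487 and 0.00748). Without control 1, 2 or 3, 6, 4 and 5 macroautophagy genes were called, where 21.5%, 18.4% and 18.8% of all genes tested were called.

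Of the genes for cathepsin inhibitors, 14 were found, 7 of which had no count in any library, and 6 were tested. Cst3, cystatin C, a secreted inhibitor of cysteine cathepsins, was at 89.2, 79.0 and 72.1 CPM in control and 192, 370 and 518 CPM in knockout. It rose 4.5-fold (log2 fold change 2.17, SE 0.355, adjusted p = 0.00506). Cst6, cystatin M/E, which inhibits Ctsl and legumain and is known from skin epithelium, went the other way. It fell 3.28-fold, from 34.5, 26.7 and 21.4 CPM to 10.4, 9.06 and 5.7 CPM (adjusted p = 0.00566). Serpinb1a, a serpin of neutrophil serine proteases, was at 0.197 to 0.515 CPM in control and 2.65 to 5.5 CPM in knockout (adjusted p = 0.00522) and entered the test through its knockout counts alone, so it could only be called higher. The calls of Cst3 and Cst6 held under every alternative run.

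**Figure D4:**
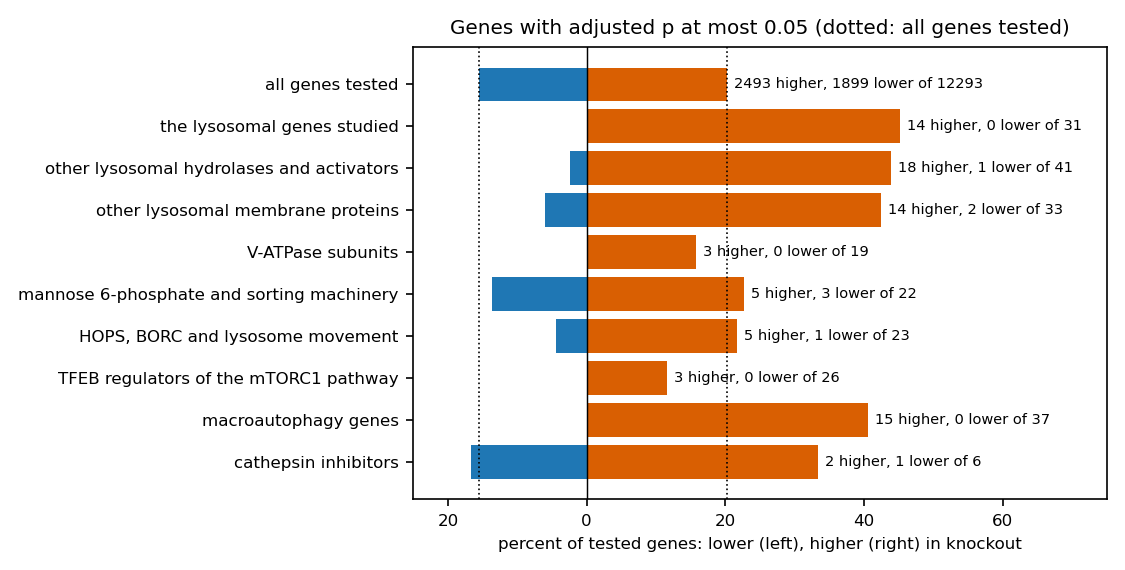
Percent of tested genes called higher (orange, to the right) and lower (blue, to the left) in knockout, by gene list, with the numbers beside each bar and dotted lines at the percentages over all genes tested (20.3% and 15.4%). The lysosomal genes, other hydrolases, other membrane proteins and macroautophagy genes have bars of over 40% to the right, and V-ATPase subunits and TFEB regulators lie below the right dotted line.

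Markers of other cell types were read beside these results, since Cd68, Ctss and Mitf are known from macrophages, osteoclasts or melanocytes. In bulk RNA, fewer cells of a type and less RNA per cell cannot be told apart. The 16 macrophage markers summed to 31.1 to 43.8 CPM in control and to 23.4 to 32.8 CPM in knockout, and 13 of them stayed under 1 CPM in every library. With the rows of multiples of 11 as deposited, the sums were 32.1 to 45.0 CPM in control, 27.2 and 27.5 CPM in knockout 1 and 2 and 72.6 CPM in knockout 3, which was then above every control. In the divided values Cd14 and Mrc1 made up most of the sum. Cd14, a lipopolysaccharide co-receptor, was at 18.2, 14.3 and 16.7 CPM in control against 22.2, 26.2 and 28.7 CPM in knockout and rose (log2 fold change 0.65, adjusted p = 0.0254), but its call was lost without control 1, 2 or 3 (adjusted p = 0.0585, 0.124 and 0.101) or knockout 2 (0.063). Mrc1, the mannose receptor, was at 21.9, 16.4 and 26.7 CPM in control against 0.49, 0.196 and 0 CPM in knockout and fell (adjusted p = 0.00128). Adgre1, Itgam, C1qb, C1qc and Tyrobp had 0 counts in every library, and Ptprc had 0 counts in knockout, where this allows up to 0.184 CPM in knockout 3. Mpeg1, in a row that was divided by 11, was at 0 in control against 0.273, 0 and 3.74 CPM in knockout 1, 2 and 3, or 3.0, 0 and 41.1 CPM as deposited, so that it was high in the library where Cd68 was high. Melanocyte markers summed to 0.196 to 0.749 CPM in control and to 0.539 to 0.735 CPM in knockout, with Tyr and Tyrp1 at 0 throughout. Osteoclast markers summed to 8.45 to 16.1 CPM in control and to 4.23 to 8.77 CPM in knockout. As deposited, these sums were 9.05 to 16.1 and 9.74 to 15.9 CPM. These markers did not all move alike. Tnfrsf11a, the receptor RANK, fell (log2 fold change -1.96, adjusted p = 0.00788), and Acp5 did not pass (log2 fold change -0.71, adjusted p = 0.287). Calcr and Dcstamp, not tested, were higher in every knockout library than in any control. Calcr counts were 1, 0 and 0 in control against 4, 24 and 10. Dcstamp, in a divided row, went from 0 throughout control to 6, 5 and 9.

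Epithelial and fibroblast markers moved with the groups. The 8 epithelial markers summed to 10900 to 13400 CPM in control and to 5790 to 8490 CPM in knockout, and 5 of the 7 tested fell. Keratins Krt7, Krt8, Krt18 and Krt19 were present in every library at 237 CPM or more. Of these, Krt7, Krt8 and Krt18 fell 2.23-fold, 2.06-fold and 3.82-fold (adjusted p = 0.0025, 0.0145 and 0.00103), and Krt19 did not pass (adjusted p = 0.342). Krt14 was at 589, 432 and 338 CPM in control and 228, 52.6 and 19.2 CPM in knockout (adjusted p = 0.0873). Krt5, not tested, had 1, 1 and 0 counts in control and 42, 10 and 3 in knockout. Epcam and Cdh1, which define epithelial cells, fell 14.7-fold and 13.4-fold (adjusted p = 0.000645 and 0.000694). The 10 fibroblast markers summed to 3.73 to 8.47 CPM in control and to 409 to 430 CPM in knockout. Of the 4 tested, Col1a1 and Col3a1 rose (adjusted p = 0.00158 and 1.5e-05). Pdgfrb, with 1, 1 and 0 counts in control, was also called higher but entered the test through its knockout libraries alone, while Lum was at 0 in every library and 6 of the 10 stayed under 1 CPM throughout. In knockout 1, 2 and 3 the fibroblast sum was 429.9, 409.1 and 408.5 CPM and the epithelial sum 8487, 6300 and 5791 CPM. The summed CPM of the 34 lysosomal genes were 4534, 4802 and 7981 in knockout 1, 2 and 3 and 4074, 3771 and 3687 in control. The part of these marker shifts in the lysosomal values was not tested.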

How the data were processed

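RNA-seq counts per gene symbol were analysed for 3 control and 3 knockout libraries of MOC2 cells. The authors deposited a table of whole-number counts. Per the submitters' processing notes, the tools and builds named are STAR 2.7.1a, featureCounts and hg38; their roles are not stated, although gene symbols in the table are those of mouse. Annotation, strand handling and filtering: not given in the sources used here. In 1704 rows with 0 in control 1 all values were multiples of 11; these rows were divided by 11, and 0 of the 34 genes were among them. Columns were matched to libraries by the names that the descriptions give, and libraries to groups by title. The test was edgeR's robust quasi-likelihood test (version 4.0.16, R 4.3.3) after filterByExpr and TMM scaling, with Benjamini-Hochberg adjustment over 12293 genes and a threshold of 0.05. The biological coefficient of variation was 28%, and library totals were 16158516 to 21294330 counts. The SE is the log2 fold change divided by the root of the F statistic. Pairs of libraries of 1 group differed by more than sampling noise. The procedure was tested on simulated data. Alternatives were DESeq2 1.42.0, limma-voom (limma 3.58.1), other scalings and filters, deposited values, a replicate block and each library left out. The genes and lists were chosen with earlier results of these data known. All 34 genes are named, with Elavl1, and from each pathway list up to 4 changed genes with the smallest p, or 2 where none changed. For the cell type lists, the sum of each list and the values of some of its markers are given, not of every marker. Mouse genome sequence and coordinates were not used here.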

Additional observations from a re-analysis of the deposited data

How the results depend on the processing

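For the 31 tested genes, 407 of 464 comparisons with an alternative kept direction and side of the threshold, 39 lost and 8 gained a call, and 10 changed sign; of the named pathway genes, 406 of 435 kept both and 29 lost a call. The sign changes were of genes that had not passed, and came with 1 library left out. Ranges of the log2 fold change are given over all alternatives that gave an adjusted p. For Ctsh it ranged from -0.338 to 0.034 (above 0 without control 1). Ctsz ranged from -0.092 to 0.141 (below 0 without control 2, control 3 or knockout 3). Lamp1 ranged from -0.037 to 0.08 (below 0 without control 3). Cd68 ranged from -0.673 to 2.364 and Scarb2 from -0.144 to 0.523 (both below 0 without knockout 3). Neu1 ranged from -0.391 to 0.112 (above 0 without control 1, knockout 1 or knockout 2). Elavl1 ranged from -0.089 to 0.006 (above 0 without knockout 3). With 1 library left out, the number of these genes higher ranged from 4 to 19 and lower from 0 to 1. The numbers changed ranged from 10 to 23 for other hydrolases, 1 to 4 for V-ATPase subunits, 7 to 17 for other membrane proteins, 0 to 11 for tethering and movement, 0 to 8 for TFEB regulators and 4 to 18 for macroautophagy genes. Calls were fewest with a control library left out, with 2312 to 2685 genes in all (18.4% to 21.5% of those tested). With a knockout library left out, 3541 to 6021 genes were called (28.5% to 48.3%). The cause was not tested. DESeq2 called 15 of the genes studied and 5 TFEB regulators, where 43.1% of all genes tested were called, and gave Cd68 no adjusted p. RLE scaling and the deposited values each called 12, both without Ctsc and Lamp2, and moved the median of all genes by under 0.1. In these 2 fits 35.6% and 34.6% of all genes tested were called.

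The titles number both groups 1 to 3. Correlations of deviations from the group mean were -0.049, 0.256 and 0.022 between same-numbered libraries. They were -0.249 to 0.192 between differently numbered libraries of the 2 groups. Deviations from a mean of 3 libraries depend on each other, so these values cannot settle whether the numbers mark pairs. The main test did not take them as pairs. With the number as a replicate block, 11 of the 31 genes were higher (Ctsc, Lamp2 and Psap lost). Of tethering and movement 2 of 23 genes changed, and of macroautophagy 9 of 37. In that fit 29.2% of all genes tested were called. The planned search for E-boxes in promoters was not run, since no mouse promoter sequence was used here. With 3 libraries per group, no check for single outlying libraries by Dixon's test was run.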
